A study of Homo sapiens with 8 samples.

Results

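Keratins are the intermediate filament proteins of epithelial cells. Type I (acidic) and type II (basic) keratins pair to form the filaments, and the pairs differ between simple epithelia, the layers of stratified epithelia, the root sheath of the hair follicle and the hair shaft. Most type II genes lie in a cluster on chromosome 12, where the type I gene KRT18 also lies next to KRT8, and most type I genes lie in a cluster on chromosome 17. Glandular and lung epithelial cells mainly use the simple-epithelial set of KRT7, KRT8, KRT18 and KRT19, and in the loss of epithelial character that TGFβ can start, keratin filaments give way to vimentin filaments. SMAD3 is the DNA-binding mediator that the activated TGFβ receptor phosphorylates, and it recognises the letters CAGAC and GC-rich letters such as GGCGC and GGCCG. The question asked here was how much DNA of keratin promoters the SMAD3 antibody recovered, relative to a mock antibody, before and after TGFβ1.

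The keratin genes were chosen by name, as every gene on the arrays whose symbol is KRT followed by a number and, in some cases, a letter. They comprised 53 genes with 1477 probes, out of 17132 genes and 474411 probes on the arrays, and all keratin probes were on slide 2. Of these genes 27 lay on chromosome 12 and 26 on chromosome 17. SMAD3 ChIP-on-chip was carried out in A549, an established human lung adenocarcinoma line with alveolar epithelial features. One group received no ligand (the basal level) and the other received TGFβ1 at 2 ng/ml, the labels name no transgene or gene deletion in either, and each had 2 replicates that the labels call biological. The paper's methods describe another array format and 3 array replicates, whereas the files analysed here hold 2 replicates on 2 slides. The labels and methods give up to 2 h of stimulation, while the results section of the paper gives 30 min, so the time is not settled. Each replicate was hybridised to 2 slides, giving 8 arrays, and on each array DNA from the SMAD3 IP (Cy5) was set against DNA from the mock IP with an anti-FLAG antibody (Cy3), both after amplification by PCR. A549 is a single tumour line, the dyes were not swapped, and the arrays hold DNA, so no keratin expression and no cell type marker was measured.

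The measure was the log2 SMAD3/mock ratio, centred on the median of each array, so 0 is the typical probe and a negative value means more DNA in the mock IP than in the SMAD3 IP relative to that probe. A gene's promoter value was the mean over its probes in a window that began 2000 bp before the annotated start and ended 800 bp past it. With at least 3 such probes required, 48 of the 53 keratins were tested, with 3 to 18 probes each (median 11). Differences were tested with limma over all 16299 genes, with Benjamini-Hochberg adjusted p under 0.05 as the threshold for a call. The SD between the 2 replicates of a keratin had a median of 0.09 and reached 0.45 (log2). On the arrays of slide 2, 47.0% to 51.5% of probes were above background in both channels, and over all probes the replicate ratios correlated at 0.90 (basal level) and 0.92 (TGFβ1), against 0.20 to 0.23 across conditions.

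The promoters of KRT20, KRT24, KRT28 and KRT75, each with a called probe within 250 bp before the start, and that of KRT8, the type II simple-epithelial keratin with an entry, are shown to make the SMAD letters and the start region visible. RefSeq (GRCh38.p14) held a promoter entry for 32 of the 53 keratins. Those without one in the table included KRT6A, KRT7, KRT15, KRT18 and KRT19. A single entry was kept per gene symbol, so other starts of a gene are not shown. Whether the start of an entry is the one the arrays annotate was not checked. Each line gives the 250 bases before the start, read 5′ to 3′ on the gene's strand, with CAGAC or its reverse complement GTCTG in capitals, and with ATAAA in capitals where it stands in the last 40 bases. KRT8 is at chr12:52926470-52926719, KRT75 at chr12:52434372-52434621, KRT24 at chr17:40703753-40704002, KRT28 at chr17:40799960-40800209 and KRT20 at chr17:40885243-40885492, all on the minus strand. The array files name no genome build, so probe positions are given as their annotated distance from the start and need not fall on the same base in these sequences.
KRT8: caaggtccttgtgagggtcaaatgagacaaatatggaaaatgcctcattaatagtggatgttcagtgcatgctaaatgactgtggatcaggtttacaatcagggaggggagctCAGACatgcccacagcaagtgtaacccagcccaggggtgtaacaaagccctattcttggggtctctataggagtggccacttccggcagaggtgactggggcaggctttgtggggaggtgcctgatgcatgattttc
KRT24: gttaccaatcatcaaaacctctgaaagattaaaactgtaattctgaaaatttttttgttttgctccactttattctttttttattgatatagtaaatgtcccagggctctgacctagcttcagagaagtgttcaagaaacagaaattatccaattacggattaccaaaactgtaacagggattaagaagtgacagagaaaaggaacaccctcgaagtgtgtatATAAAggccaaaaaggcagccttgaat
KRT75: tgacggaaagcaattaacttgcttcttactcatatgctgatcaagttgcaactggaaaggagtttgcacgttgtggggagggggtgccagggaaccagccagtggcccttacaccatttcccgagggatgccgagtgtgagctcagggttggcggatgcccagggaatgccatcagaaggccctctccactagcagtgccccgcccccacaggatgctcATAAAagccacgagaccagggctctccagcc
KRT20: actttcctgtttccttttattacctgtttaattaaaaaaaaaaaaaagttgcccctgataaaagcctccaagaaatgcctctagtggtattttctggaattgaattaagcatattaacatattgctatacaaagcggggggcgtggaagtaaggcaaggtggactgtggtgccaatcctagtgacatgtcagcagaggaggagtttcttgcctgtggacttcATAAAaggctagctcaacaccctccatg
KRT28: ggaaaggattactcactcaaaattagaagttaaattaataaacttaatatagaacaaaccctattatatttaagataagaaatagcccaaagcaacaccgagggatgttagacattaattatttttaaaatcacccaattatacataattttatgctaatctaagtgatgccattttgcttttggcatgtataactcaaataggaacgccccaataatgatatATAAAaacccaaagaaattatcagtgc

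Counting both strands, CAGAC was found in 12 of the 32 keratin promoters (37.5%) and in 37.8% of all 27305 RefSeq promoters of this length. Of the promoters printed only that of KRT8 holds it, and KRT9, KRT26, KRT31 and KRT79 hold it 2 times each. The palindrome GTCTAGAC occurred in 0 of the 32 keratins and in 0.176% of all promoters. GGCGC occurred in 0 of 32, against 44.2% of all promoters, and GGCCG in 2 of 32 (KRT9 and KRT79), against 44.1%. GGCGC and GGCCG can overlap in long GC runs, and CAGAC is not contained in GTCTAGAC. The GC content of the keratin promoters had a median of 44.6% (28.8% to 66.8%), and that of all promoters 58%. ATAAA, the core of the TATA box, was searched on the given strand only, after the sequences had been read. It stood in the last 40 bases of 25 of the 32 keratins (78.1%) and of 5.72% of all promoters. These are matches of letters and say nothing of whether a factor was bound.

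At the basal level 54.2% of the tested keratin promoters were called below 0, that is, below the SMAD3/mock ratio of the typical probe. Before centring, the medians of the basal arrays of slide 2 were 0.58 and 0.56. A value below 0 therefore need not mean more signal in the mock IP. Of the 48 tested, 26 were called below 0, 3 were called above 0 (KRT15, KRT84 and KRT28) and 19 were not called, while 38.1% of all genes were called below and 20.7% above 0. Their median log2 ratio was -0.38, against -0.12 over all genes. After TGFβ1, 32 were called below 0 and 1 above 0 (KRT75), while 42.5% of all genes were called below and 16.5% above, and the median was -0.55 against -0.18. Among the genes of slide 2, which holds all keratins, 43.3% were below 0 at the basal level and 49.2% after TGFβ1. By cluster, 17 of the 25 keratins of chromosome 12 (68%) were below 0 at the basal level, against 43.3% of its other genes, and 9 of the 23 of chromosome 17 (39.1%), against 46.8%. After TGFβ1 the shares were 68% against 43.4% on chromosome 12 and 65.2% against 56.8% on chromosome 17. Of the cornified envelope genes, 59.4% were below 0 at the basal level. None of these differences in share was tested. In both conditions 21 keratins were called below 0, and in at least 1 condition 37, counts that were not made over all genes. With loess normalization within each array the count was 18 below and 11 above at the basal level and 19 below and 6 above after TGFβ1, as the median of all genes moved to 0.14 and 0.16, while that of the keratins was -0.07 and -0.16. With normexp background correction 1 keratin was called below 0 at the basal level and 4 after TGFβ1, and over all genes the shares also dropped, to 2.52% and 10.6%.

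**Figure D1:**
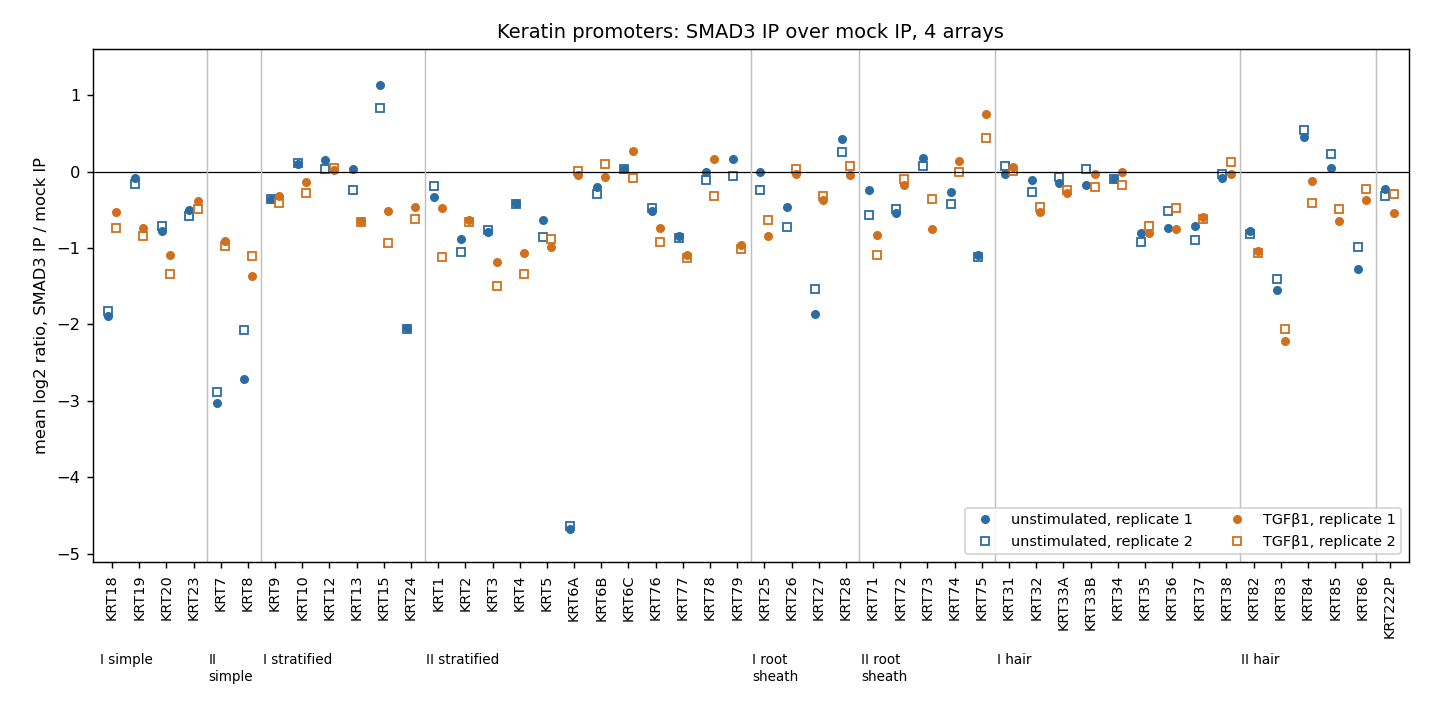
Mean log2 SMAD3/mock ratio (y axis) over the promoter probes of each of the 48 tested keratins (x axis, ordered by type and tissue), with a point for each array of slide 2 (blue, unstimulated; orange, TGFβ1; filled circle, replicate 1; open square, replicate 2). Most points lie below 0. Of these genes KRT6A is lowest at the basal level (-4.67 and -4.63) and near 0 after TGFβ1, and KRT15 is highest at the basal level (1.14 and 0.83).

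Between the conditions, the ratio was higher after TGFβ1 at 11 of the 48 keratins and lower at 13, with 24 not called. Over all genes 20.3% were called higher and 27.5% lower, so the keratin shares of 22.9% and 27.1% were near the background. Among the genes of slide 2, 21.7% were called higher and 30.9% lower. The median difference was -0.05 among keratins and -0.06 among all genes (log2, TGFβ1 minus basal level). The values of the conditions did not overlap in 39 of the 48 keratins, while 74.9% of all genes did not overlap. With normexp, only 2 keratins were called higher (KRT9 and KRT86) and 4 lower (KRT4, KRT5, KRT15 and KRT79), against 4.04% and 6.22% of all genes. With the median of probes in place of the mean, 3 were higher (KRT6A, KRT7 and KRT75) and 2 lower, against 4.79% and 6.18% of all genes. Calls thus became fewer across the arrays under both settings. KRT9 was named after its values were seen. The called differences ran from 0.38 to 4.63 among those higher and from -0.47 to -1.71 among those lower. All 11 keratins that were higher had been called below 0 at the basal level, and 6 of them were still called below 0 after TGFβ1. Of the 13 that were lower, 12 were called below 0 after TGFβ1. The difference includes both levels, so a choice by it favours low basal levels among the rises and low TGFβ1 levels among the falls. These counts were not made over all called genes.

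The type II keratins of simple epithelia, KRT7 and KRT8, were both higher after TGFβ1. KRT7, typical of glandular ducts and lung epithelium, had log2 ratios of -3.02 and -2.88 at the basal level and of -0.90 and -0.98 after TGFβ1, a difference of 2.01 (SE 0.14, 4.02-fold, limma adjusted p = 1.3e-05). KRT8, the general simple-epithelial type II keratin, had -2.71 and -2.08 at the basal level and -1.36 and -1.11 after TGFβ1, a difference of 1.16 (SE 0.21, 2.23-fold, limma adjusted p = 0.00269). At both genes each basal replicate was below each TGFβ1 replicate, and all values stayed below 0. With normexp the limma differences were 1.05 for KRT7 (adjusted p = 0.148) and 0.74 for KRT8 (adjusted p = 0.149), which ended both calls. Leaving out TGFβ1 replicate 2 also ended that of KRT8 (1.03, limma adjusted p = 0.0634), and with the median of probes the KRT8 difference was 0.09 (limma adjusted p = 0.904).

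Among the type I keratins of simple epithelia, KRT18 was higher after TGFβ1, KRT19 and KRT20 were lower and KRT23 was not called. KRT18, the partner of KRT8, had log2 ratios of -1.89 and -1.83 at the basal level and of -0.53 and -0.74 after TGFβ1, a difference of 1.22 (SE 0.14, 2.33-fold, limma adjusted p = 0.000219). KRT19, the smallest keratin and the source of the CYFRA marker of lung cancer, had -0.09 and -0.17 at the basal level and -0.74 and -0.85 after TGFβ1, a difference of -0.66 (SE 0.13, limma adjusted p = 0.00421). The replicates of the conditions did not overlap at either gene, and the directions at KRT18 and KRT19 were opposite.
KRT20, an intestinal and urothelial keratin, had -0.78 and -0.71 against -1.09 and -1.34, a difference of -0.47 (SE 0.15, limma adjusted p = 0.0281), and KRT23 differed by 0.10 (SE 0.13, adjusted p = 0.58). The KRT20 call was lost over all probes (-0.22, limma adjusted p = 0.0853) and without either basal replicate or TGFβ1 replicate 2 (limma adjusted p from 0.0579 to 0.119), and its sign turned with the median of probes (0.012). The KRT18 difference depended on the window. Over all 34 probes of the gene it was 0.05 (limma adjusted p = 0.692), and that of KRT19 over all its probes was 0.20. With normexp both calls ended (KRT18 0.71, limma adjusted p = 0.162, and KRT19 -0.19, limma adjusted p = 0.269). The median of probes ended both too (0.58 and -1.01, limma adjusted p = 0.135 and 0.109). Over probes above background in both channels KRT19 was not called (-0.40, limma adjusted p = 0.0893), while KRT18 was (1.18).

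Of the keratins of stratified epithelia, 12 type II and 6 type I genes were tested. KRT6A, which is expressed in hair follicles, nails and wounded or fast-dividing epidermis, was called higher after TGFβ1. Its promoter ratio was -4.67 and -4.63 at the basal level and -0.05 and 0.00 after TGFβ1, a difference of 4.63 (SE 0.13, limma adjusted p = 3.64e-07). The basal values stood far below those of the other tested keratins, and the TGFβ1 values were at the array median. Of its 10 window probes, the basal arrays had 10 well above background for the mock IP and 5 for the SMAD3 IP, but only 2 in each channel after TGFβ1. At most of its probes the ratio after TGFβ1 therefore compares signals that were not well above background, and no fold is given. With normexp the difference was 1.07 (limma adjusted p = 0.195). Its close relatives KRT6B and KRT6C had no window probe above background in both channels, and their differences were 0.26 (limma adjusted p = 0.157) and 0.06 (limma adjusted p = 0.805).

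KRT15, a keratin of basal keratinocytes and of the hair follicle bulge, had the greatest fall among the 48 keratins tested in the window. Its ratio was 1.14 and 0.83 at the basal level and -0.52 and -0.94 after TGFβ1, a difference of -1.71 (SE 0.18, 3.27-fold lower, limma adjusted p = 0.000157). It was the highest of these 48 at the basal level, it was below 0 on both arrays after TGFβ1, and 8 of its 11 window probes were well above background in both channels. The difference was still called with normexp (-1.01, limma adjusted p = 0.0316). Within 500 bp of the start it was -0.49 (limma adjusted p = 0.0524), and with the median of probes -0.49 (limma adjusted p = 0.13), which ended the call.

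KRT79, a keratin of the hair canal and sebaceous duct, had 0.16 and -0.06 at the basal level and -0.96 and -1.01 after TGFβ1, a difference of -1.03 (SE 0.14, 2.05-fold lower, limma adjusted p = 0.00058), against -0.08 over all its probes (adjusted p = 0.516). KRT4, which pairs with KRT13 in the suprabasal layers of oral and oesophageal mucosa, had -0.41 and -0.43 against -1.06 and -1.34, a difference of -0.78 (SE 0.15, 1.72-fold lower, limma adjusted p = 0.00296). KRT13 had 0.04 and -0.24 against -0.65 and -0.66, a difference of -0.55 (SE 0.15, limma adjusted p = 0.0155). The conditions did not overlap at either gene of this mucosal pair, but the median of probes ended both calls (KRT4 -0.24, limma adjusted p = 0.521, and KRT13 -0.13, limma adjusted p = 0.626). The KRT13 call was also lost over all probes (-0.17, limma adjusted p = 0.268), within 500 bp (limma adjusted p = 0.0838) and without basal replicate 1 or either TGFβ1 replicate (limma adjusted p from 0.0783 to 0.132). KRT3, a corneal keratin, differed by -0.56 (SE 0.15, limma adjusted p = 0.0173), but by 0.86 in the opposite direction over the probes within 500 bp of its start (adjusted p = 0.0133).
KRT24, a type I keratin of differentiating keratinocytes, was higher, with -2.04 and -2.06 at the basal level and -0.46 and -0.62 after TGFβ1, a difference of 1.51 (SE 0.14, limma adjusted p = 6.01e-05). Only 2 of its 14 window probes were well above background in both channels, so no fold is given, and the call ended with normexp (0.84, limma adjusted p = 0.159) and with the median of probes (0.05, limma adjusted p = 0.697). The epidermal keratins KRT1, KRT5 and KRT10 were not called, with differences of -0.54 (SE 0.21, limma adjusted p = 0.065), -0.19 (SE 0.14, limma adjusted p = 0.323) and -0.32 (SE 0.13, limma adjusted p = 0.0862). Other settings called them lower. KRT1 was called with the replicate block (limma adjusted p = 0.0341), with probes above background in both channels (-1.42, limma adjusted p = 5.96e-05) or in 1 channel (-1.36), and without basal replicate 1 or TGFβ1 replicate 1 (-0.61 and -0.85). KRT5 was called with normexp (-0.41, limma adjusted p = 0.0473), with probes above background in both channels (-1.24, limma adjusted p = 0.000266) and over all probes (-0.84, limma adjusted p = 0.000615), and KRT10 with loess (-0.42, limma adjusted p = 0.0184) and with probes above background in 1 channel (-0.68, limma adjusted p = 0.0152).

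KRT14, KRT16, KRT17, KRT80 and KRT81 had fewer than 3 probes in the window and were not tested there. Only 2 probes each of KRT16 and KRT17 lie in the window. Over all its probes, KRT14, the partner of KRT5 in basal keratinocytes, had mean ratios of 1.61 and 1.29 at the basal level and of -1.45 and -1.31 after TGFβ1 (4 probes, difference -2.83, limma adjusted p = 1.45e-05). KRT16, a partner of KRT6A, had -2.71 and -2.88 against -0.69 and -0.63 (6 probes, difference 2.13, limma adjusted p = 1.61e-05). KRT17, an inducible keratin of skin appendages, had -1.34 and -1.17 against -2.52 and -2.33 (5 probes, difference -1.16, limma adjusted p = 0.000196). The direction at KRT16 was that of KRT6A, and those at KRT14 and KRT17 were opposite to it. The window probes alone were not called and differed by 0.78 and -0.14 at KRT16 and by 1.22 and -0.43 at KRT17. The 32 probes of KRT80 gave a difference of -0.33 (limma adjusted p = 0.0234), and the 16 probes of KRT81, which lie from -9888 to -4881 bp, gave 1.03 (limma adjusted p = 0.000178).

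All 5 type II keratins of the inner root sheath and companion layer were called in the main setting, 3 higher and 2 lower. With normexp none of them was called. KRT75, the companion layer keratin, had -1.10 and -1.12 at the basal level and 0.76 and 0.43 after TGFβ1, a difference of 1.70 (SE 0.15, 3.26-fold, limma adjusted p = 5.97e-05). Of the 48 it had the highest ratio after TGFβ1 and was the only one called above 0 there. With normexp the difference was 0.87 (limma adjusted p = 0.0501), and within 500 bp of the start 0.30 (limma adjusted p = 0.175), which ended the call. KRT74 differed by 0.41 and KRT72 by 0.38, while KRT71 differed by -0.56 and KRT73 by -0.68. With the median of probes none of these was called, and KRT74 turned sign (-0.06). Over probes above background in both channels KRT71 differed by -0.01 (limma adjusted p = 0.972), while KRT73 (-1.08) and KRT74 (0.69) stayed called. Within 500 bp of the start the KRT73 call ended (-0.48, limma adjusted p = 0.0711), as it did without TGFβ1 replicate 1 (-0.49). Leaving out any 1 replicate ended the KRT74 call (differences from 0.33 to 0.49). The KRT71 call ended with loess (-0.38, limma adjusted p = 0.0595) and without basal replicate 1 or either TGFβ1 replicate (-0.40, -0.69 and -0.43). KRT72 is named although it fell outside the rule for named genes. Of the 4 type I keratins of the inner root sheath, KRT27 was higher by 1.35 (SE 0.15, limma adjusted p = 0.000211), although its probes within 500 bp of the start differed by -0.12. KRT26 was called higher and KRT25 lower, but for the SMAD3 IP no window probe of KRT26 exceeded background clearly after TGFβ1 and none of KRT25 did at the basal level, so no fold is given for them. KRT28, not called at -0.33 (limma adjusted p = 0.0869), was among the 3 highest of the 48 at the basal level.

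Of the hair shaft keratins, 0 of the 9 tested type I genes passed the threshold for a difference in either direction by limma. Their differences ran from -0.31 to 0.20, with a median of 0.01. Of the 5 tested type II hair keratins, KRT86 was higher, KRT83, KRT84 and KRT85 were lower and KRT82 was not called. KRT86 had -1.27 and -0.99 at the basal level and -0.37 and -0.23 after TGFβ1, a difference of 0.83 (SE 0.15, 1.78-fold, limma adjusted p = 0.00254), and it was called with normexp as well (0.58, adjusted p = 0.042) but not with the median of probes (0.51, limma adjusted p = 0.52). KRT83 had -1.54 and -1.41 against -2.22 and -2.05, a difference of -0.66 (SE 0.14, limma adjusted p = 0.00545), and it was the lowest of the 48 after TGFβ1. KRT84 differed by -0.76 in the window, but by 0.75 in the opposite direction over all its probes (adjusted p = 0.00194), and KRT85 differed by -0.70 (SE 0.14, limma adjusted p = 0.00446). With normexp none of KRT83, KRT84 and KRT85 was called (limma adjusted p = 0.136, 0.567 and 0.279). The KRT85 call also ended over all probes (-0.11, limma adjusted p = 0.367) and with the median of probes (-0.43, limma adjusted p = 0.105). That of KRT83 ended over probes above background in 1 channel (-0.36, limma adjusted p = 0.144), and its sign turned with the median of probes (0.36). Whether the type I and type II hair keratins differ from each other was not tested.

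The ratio joins 2 channels, and these were also examined apart, each as the log2 signal centred on its array's median. Over all genes 0.804% were called higher and 1.75% lower in the SMAD3 channel, and 6.37% higher and 7.55% lower in the mock channel. Lower calls were more frequent on slide 2, which holds all keratins. Of its 8345 tested genes, 62 were called higher and 264 lower in the SMAD3 channel, and 633 higher and 1174 lower in the mock channel. Among the 48 keratins the SMAD3 channel was called higher at 0 and lower at 2 (KRT9 and KRT79), and the mock channel was called higher at 3 (KRT4, KRT25 and KRT83) and lower at 10. At the 11 keratins with a higher ratio, the mock channel was lower at all 11, called at 9, with a median difference of -1.68. The SMAD3 channel was also lower at 10 of these 11, with a median of -0.55 and no call. For none of these genes was a rise of the SMAD3 channel called. A choice by a higher ratio favours a lower mock channel or a higher SMAD3 channel, and a choice by a lower ratio the opposite. The same counts were not made among all genes called higher or lower, so they do not show a trait of keratins.

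At KRT7 the mock channel had log2 signals of 6.56 and 6.44 at the basal level and of 2.80 and 3.28 after TGFβ1, a difference of -3.46 (SE 0.25, limma adjusted p = 0.00842). Its SMAD3 channel had 4.10 and 4.25 against 2.47 and 3.11, a difference of -1.38 (SE 0.32, limma adjusted p = 0.128). Both channels were thus dimmer after TGFβ1, and the mock channel by more. At KRT6A the mock channel went from 5.11 and 4.76 to -0.69 and -0.99 (limma adjusted p = 0.00744), and the SMAD3 channel from 1.00 and 0.82 to -0.17 and -0.17 (limma adjusted p = 0.135). At KRT18 the differences were -2.15 in the mock channel (limma adjusted p = 0.0106) and -0.85 in the SMAD3 channel (adjusted p = 0.245), and at KRT8 they were -2.04 (adjusted p = 0.0127) and -0.81 (adjusted p = 0.369).

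Among the 13 keratins with a lower ratio, the mock channel was higher at 10 and called at 3, and the SMAD3 channel was lower at 8 and called at 1. At KRT15 the SMAD3 channel had 3.27 and 3.29 at the basal level and 1.59 and 2.06 after TGFβ1, a difference of -1.46 (SE 0.29, limma adjusted p = 0.0832), while the mock channel differed by 0.18 (SE 0.30, limma adjusted p = 0.72). At KRT79 the SMAD3 channel had 4.22 and 4.23 against 1.70 and 2.39, a difference of -2.18 (SE 0.33, limma adjusted p = 0.0362), and the mock channel differed by -1.21 (adjusted p = 0.0576). At KRT4 the mock channel had 1.49 and 1.56 against 2.77 and 2.99, a difference of 1.36 (SE 0.19, limma adjusted p = 0.0256), while the SMAD3 channel differed by 0.64 (adjusted p = 0.385). KRT9 fell in both channels, by 2.15 in the SMAD3 channel and 2.22 in the mock channel (log2), and its ratio differed by -0.01. The channel calls were fragile, since without either TGFβ1 replicate no keratin was called in the mock channel and without any of the 4 replicates none was called in the SMAD3 channel.

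**Figure D2:**
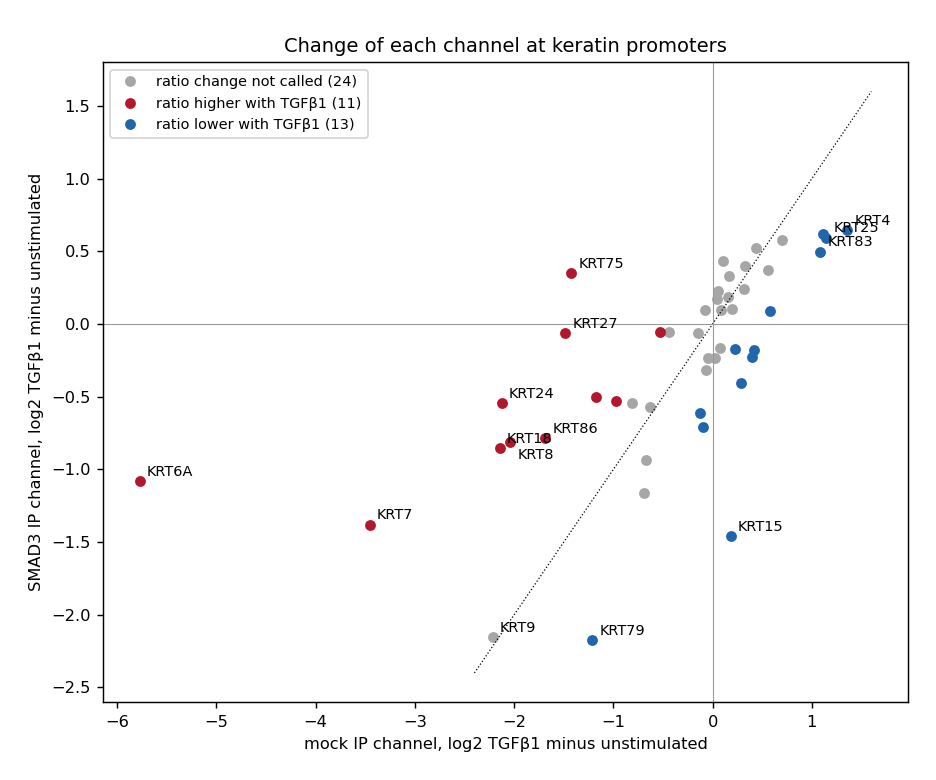
Difference of the log2 signal after TGFβ1 minus basal level in the mock IP channel (x axis) and in the SMAD3 IP channel (y axis) for the 48 tested keratins, each point a gene (red, ratio called higher; blue, called lower; grey, not called; dotted line, equal differences in both channels). The 11 red points all lie left of 0 on the mock axis, from -0.53 to -5.78, and KRT15 and KRT79 lie low on the SMAD3 axis (-1.46 and -2.18).

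The probes of a gene did not always move together. Of the 1475 keratin probes analysed after 2 outliers were left out, 206 were called higher after TGFβ1 (14.0%, background 10.5%) and 175 lower (11.9%, background 12.4%). Here background is the share over all probes of both slides. On slide 2 alone, which holds all keratin probes, it was 12.9% higher and 14.5% lower. Of the 53 genes 50 had a called probe, and 38 had probes called in both directions. These 2 counts were not made over all genes, and a gene with many probes has more occasions for a call. At the basal level 358 probes were called below 0 and 88 above (background 17.4% and 8.92%), and after TGFβ1 316 below and 64 above (background 18.5% and 8.22%). Among keratin probes these were 24.3% and 5.97%, then 21.4% and 4.34%. On slide 2 alone the shares were 21.9% and 10.2% at the basal level and 22.4% and 8.77% after TGFβ1. Only 445 keratin probes (30.2%) were well above background in both channels on all 4 arrays, against 38.6% of all probes of slide 2. In a fit of such probes alone, 130 of the 445 were called higher (background 23.2%) and 142 lower (background 30.7%), and at the basal level 247 were below 0 (background 41.1%) and 74 above (background 26.1%). After TGFβ1, 260 were below 0 (background 45.5%) and 54 above (background 24.4%). The share well above background in both channels was 39.9% for the chromosome 12 cluster, against 28.8% of the other probes of that chromosome. For the chromosome 17 cluster it was 19.2%, against 45.3%. Up to 500 bp upstream of the start it was 32.5% for keratins and 57.8% for slide 2, and within 800 bp downstream 50.7% and 64.1%. In addition, 16 probes were annotated to 2 keratins, and cross-hybridisation between similar keratin genes was not tested.

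Across the KRT6A window, 9 of 10 probes had a mean basal ratio under -4, down to -6.27, and all 9 were called higher, while the most upstream probe (-1434 bp) differed by 0.55 (limma adjusted p = 0.228). The probe of KRT6A that was above background in both channels on every array, at -316 bp, had -5.03 and -5.44 at the basal level and -0.40 and -0.27 after TGFβ1 (limma adjusted p = 0.0029). The low stretch was thus continuous from -1276 bp to the start. At KRT7, 10 of 18 probes were called higher and 1 lower. The probe at -231 bp had -5.68 and -5.49 against -0.64 and -0.13 (difference 5.20, limma adjusted p = 0.00331), whereas the probe at 271 bp, within the gene, had 2.94 and 3.21 against 1.37 and 1.36 (difference -1.72, limma adjusted p = 0.00886). These 2 probes of KRT7 had basal ratios of opposite sign.

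At KRT18, 5 of 10 probes were called higher and 1 lower. Its probe at 45 bp went from -1.40 and -1.05 to 2.38 and 2.35 (difference 3.59, limma adjusted p = 0.00356), so that the SMAD3 IP exceeded the mock IP just past the start only after TGFβ1. Its probe at -448 bp was lower, by 1.43 on the log2 scale (limma adjusted p = 0.0456). At KRT8, 3 of 9 probes were called higher, at -1391, 475 and 763 bp, and 1 lower, at -1206 bp. The probe annotated at -102 bp differed by -0.71 (limma adjusted p = 0.227), and its place relative to the printed sequence is not known. No rise was thus detected at that probe of KRT8.
At KRT24 the low basal ratios within the window lay at 5 neighbouring probes from -200 to 574 bp, with basal means from -4.90 to -6.58, and all 5 were called higher. The probe at 4 bp went from -6.48 and -5.97 to -3.19 and -3.62 (limma adjusted p = 0.0126), and the probe at 215 bp from -5.15 and -4.65 to -1.39 and -1.06 (limma adjusted p = 0.00626).

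**Figure D3:**
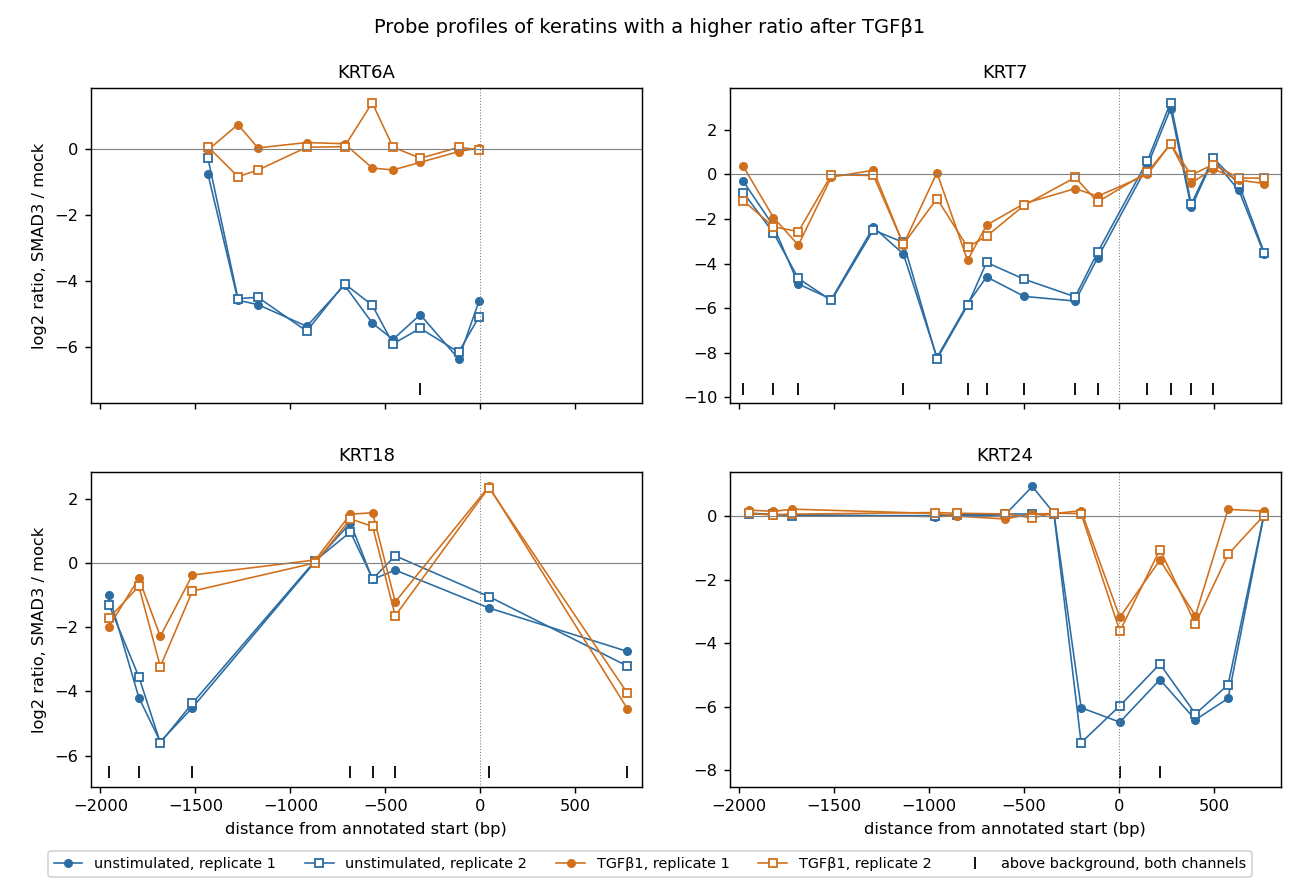
Log2 SMAD3/mock ratio (y axis) of each window probe against its distance from the annotated start in bp (x axis) at KRT6A, KRT7, KRT18 and KRT24, with a line per array (blue, unstimulated; orange, TGFβ1) and black ticks under probes well above background in both channels on all 4 arrays. Replicates run close together, and the stretches of low ratio at the basal level span 9 probes at KRT6A and 5 at KRT24.

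At KRT15 the fall came from upstream probes. The probe at -1933 bp had 7.98 and 7.61 at the basal level and 0.07 and -0.33 after TGFβ1 (difference -7.92, SE 0.24, limma adjusted p = 0.00223), and the probe at -1497 bp had 4.05 and 3.57 against -1.76 and -1.50 (difference -5.44, limma adjusted p = 0.00318). From -425 bp to the end of the window no probe was called. Beyond the window, the probe at -3450 bp had 10.11 and 9.37 against -1.72 and -2.50, a difference of -11.85 (SE 0.44, limma adjusted p = 0.00267), and the probe at -3218 bp had 6.53 and 6.21 against -2.03 and -2.19, a difference of -8.49 (SE 0.17, limma adjusted p = 0.00203). These 3 KRT15 probes at -3450, -3218 and -1933 bp were among the 5 greatest falls of called keratin probes well above background in both channels on all 4 arrays.
At each of them the SMAD3 channel carried the difference. At -3450 bp its log2 signal was 13.21 and 13.00 at the basal level and 1.69 and 1.18 after TGFβ1, while the mock channel stayed between 2.53 and 2.95. At these upstream probes of KRT15 the SMAD3 IP thus exceeded the mock IP at the basal level and not after TGFβ1 at -3450 and -3218 bp, while at -1933 bp the ratio after TGFβ1 was near 0.

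The remaining falls among these 5 were at KRT5 and KRT18. The KRT5 probe at 1113 bp had 9.02 and 8.49 at the basal level and -0.38 and -0.17 after TGFβ1, a difference of -9.03 (SE 0.24, limma adjusted p = 0.0021), with the SMAD3 channel at 11.81 and 11.63 before and 1.80 and 1.17 after. Within the window of KRT5, 3 probes were called higher and 3 lower, and the mean over all 16 was not called. The KRT18 probe at 877 bp had -0.13 and 1.79 at the basal level and -7.18 and -7.45 after TGFβ1, a difference of -8.15 (SE 0.77, limma adjusted p = 0.0113). There the mock channel differed, from 0.10 and -0.90 to 8.16 and 8.01, and the SMAD3 channel stayed between 0.53 and 1.57.

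Among called keratin probes well above background in both channels on all 4 arrays, the 5 greatest rises were at KRT84, KRT8, KRT75 and KRT36. The KRT84 probe at 1531 bp had -4.14 and -5.15 at the basal level and 4.04 and 4.47 after TGFβ1, a difference of 8.90 (SE 0.44, limma adjusted p = 0.00382). Here both channels moved, the SMAD3 channel from 1.87 and 0.63 to 3.86 and 4.44 and the mock channel from 5.44 and 5.09 to -0.75 and -0.84. The KRT8 probe at 1330 bp had -4.54 and -4.28 against 2.76 and 2.89, a difference of 7.23 (SE 0.15, limma adjusted p = 0.00203). Its SMAD3 channel stayed between 5.28 and 5.94, and its mock channel went from at least 9.29 on both basal arrays to 1.95 and 2.23.
The KRT75 probe at -4383 bp differed by 7.18 (SE 0.16), the KRT36 probe at -5308 bp by 6.71 (SE 0.16) and the KRT8 probe at 763 bp by 6.61 (SE 0.58), with limma adjusted p of 0.00203, 0.00203 and 0.00986. At KRT36 and at this KRT8 probe the mock channel differed by more than the SMAD3 channel, and at KRT75 the mock channel fell from 7.51 and 7.17 to 1.22 and 2.04 while the SMAD3 channel went from 2.07 and 2.06 to 3.20 and 4.01.

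**Figure D4:**
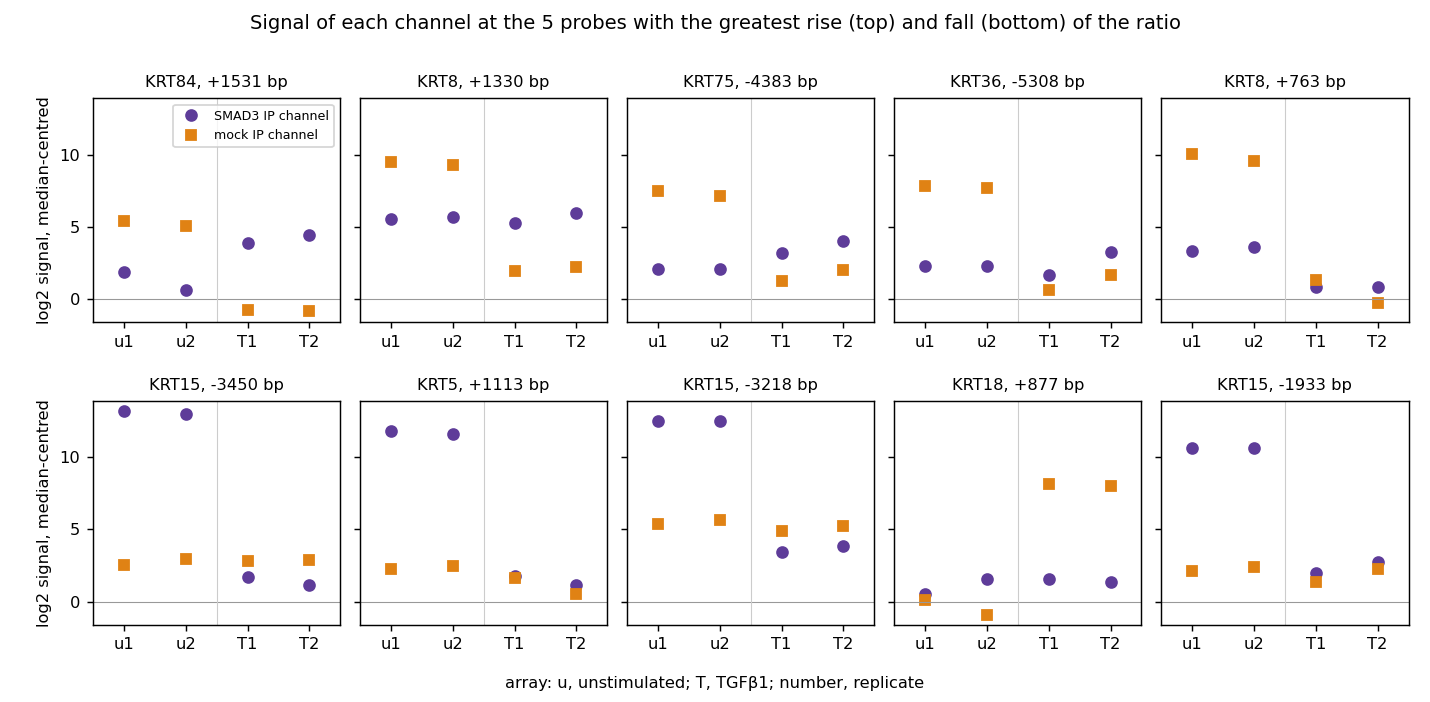
Log2 signal of the SMAD3 IP channel (purple circles) and mock IP channel (orange squares), each centred on the array median (y axis), on the 4 arrays (x axis; u, unstimulated; T, TGFβ1; number, replicate) at the keratin probes with the 5 greatest rises (top) and 5 greatest falls (bottom) of the ratio. Only called probes well above background in both channels on all 4 arrays were ranked. The orange squares drop in all 5 top panels, and the purple circles drop in 4 of the 5 bottom panels, such as KRT15 at -3450 bp from 13.21 to 1.69 in replicate 1, while at KRT18 the orange squares rise.

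KRT79, KRT4 and KRT83 showed further ways to a lower mean. At KRT79, 8 of 16 probes were called lower and 1 higher, and the probe at -799 bp had 2.22 and 2.26 against -2.83 and -2.04 (difference -4.67, limma adjusted p = 0.00641). At KRT4 the probe at 276 bp went from -0.55 and -0.78 to -8.33 and -7.21, and the probe at -1594 bp in the opposite direction, from -1.40 and -1.04 to 5.27 and 4.53. The KRT4 promoter mean is thus the balance of 3 probes called lower and 1 called higher. At KRT83 the probes at 470 and 581 bp fell by 6.08 and 4.72 on the log2 scale, and that at -1800 bp was higher by 4.70.

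**Figure D5:**
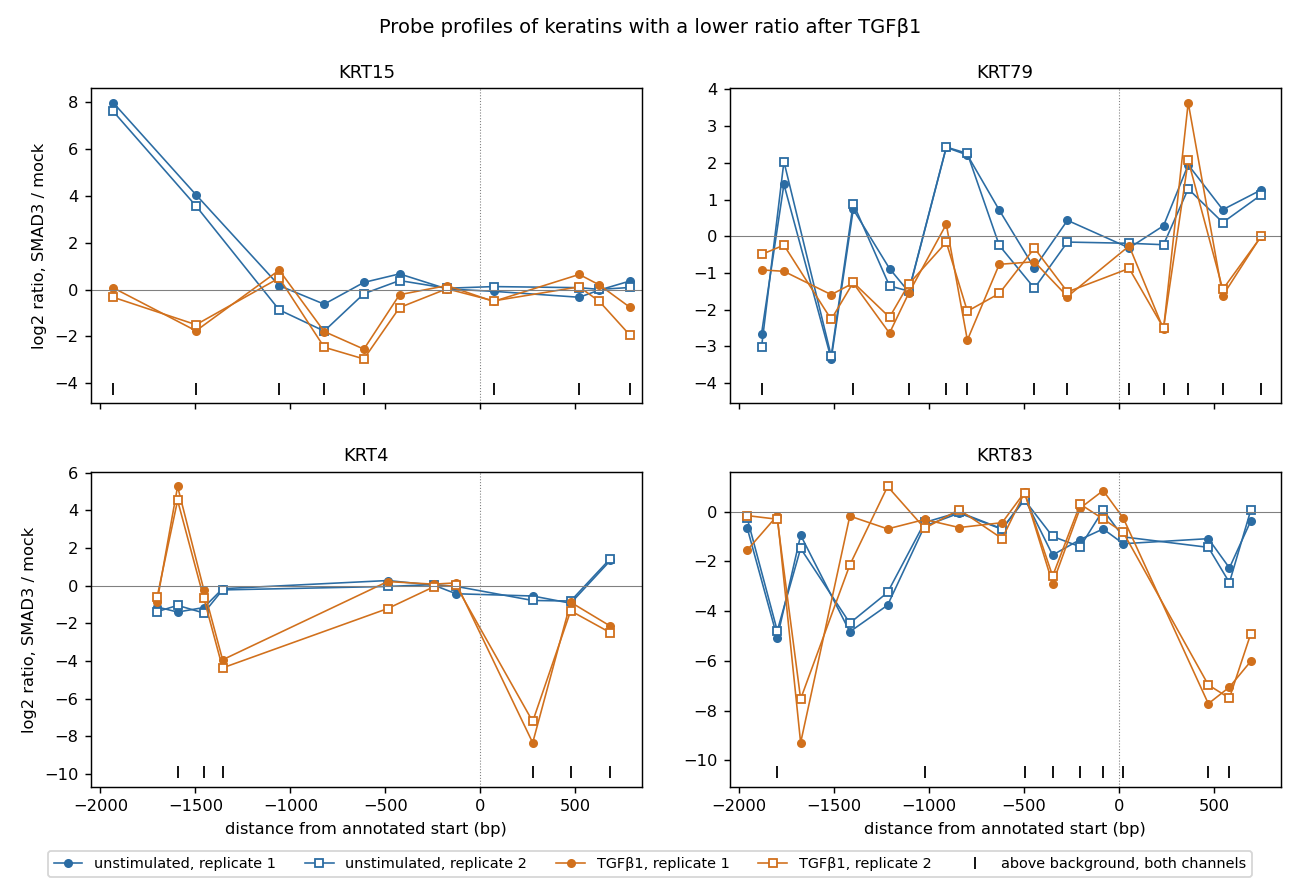
Log2 SMAD3/mock ratio (y axis) of each window probe against its distance from the annotated start in bp (x axis) at KRT15, KRT79, KRT4 and KRT83, with a line per array (blue, unstimulated; orange, TGFβ1) and black ticks under probes well above background in both channels on all 4 arrays. At KRT15 the conditions part at the upstream end (7.98 and 7.61 against 0.07 and -0.33), while at KRT4 and KRT83 single probes or short runs stand apart.

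Called probes annotated within 250 bp before the start were also found at KRT20, KRT28 and KRT75. The KRT20 probe at -62 bp had -0.23 and 0.05 at the basal level and -7.20 and -5.87 after TGFβ1 (difference -6.45, limma adjusted p = 0.00911). At KRT20, 12 of its 13 window probes were not called. The KRT28 probe at -18 bp had 5.01 and 4.92 against 0.09 and 0.53 (difference -4.66, limma adjusted p = 0.00314), and it was the only called probe of that gene in the window. The KRT75 promoter held neighbouring probes called in opposite directions, at -171 bp (1.80, limma adjusted p = 0.00841) and at -61 bp (-1.69, limma adjusted p = 0.0083). None of these 3 promoters holds CAGAC.

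Genes that work with keratins were counted by list, to be read against the 20.3% of all genes called higher and 27.5% lower. Of 19 desmosome and filament linker genes, which anchor keratin filaments at cell junctions, 4 were called higher and 3 lower, with a median difference of 0.06. Those with the greatest differences were EVPL (-2.26), DSC2 (-1.50) and PKP1 (-0.83). Of 15 other intermediate filament genes, 0 were called higher and 4 lower by limma, with a median of -0.19. Among them GFAP, the glial filament protein, went from 3.38 and 3.02 to -0.66 and -0.92 (limma adjusted p = 1.56e-06), BFSP1 of the lens differed by -1.45 and VIM (vimentin) went from 0.34 and 0.47 to -0.71 and -1.08, a difference of -1.30 (SE 0.16). Of 32 cornified envelope genes, 6 were higher and 8 lower, among them SPRR2G (-2.86), TGM3 (-2.19) and LCE3A (1.68), of which SPRR2G and TGM3 had 1 probe each above background in both channels (of 15 and 10). Of 37 keratin-associated protein genes of the hair shaft, 1 was higher (KRTAP4-4, 2.64) and 5 lower. The last 2 lists had medians of 0.02 and 0.01, that of all genes was -0.06, and none of these lists was set against the keratins in a test.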

How the data were processed

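SMAD3 ChIP-on-chip was measured on 8 Agilent 2-colour arrays, with 2 replicates of each condition on 2 slides. The deposited intensity values came from Agilent Feature Extraction 9.5.1.1 per the file headers, which had subtracted background, detrended the signals, scaled the dyes with a linear factor and put surrogate values where a signal was not above background. The log2 ratios of the authors' series matrix differed from those of the scanner files by at most 3.13e-06, so the deposited values were not normalised between arrays. The mock antibody, a control IgG in the labels, was anti-FLAG per the paper's methods, and the peak-calling step of the authors was not used here.

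From the processed signals, log2 ratios (SMAD3 IP over mock IP) were centred on each array's median, which had been 0.24 to 0.72. Each channel was centred on its own median, so differences of the channels need not add up to that of the ratio. Removing 1404 outlier probes left 473007, of which 1475 of the keratins (45 to 60 bases long). Gene means needed at least 3 probes in the window of 2000 bp before to 800 bp past the start. Tests used lmFit and eBayes of limma 3.58.1 (R 4.3.3, with the package data.table at version 1.17.8) with Benjamini-Hochberg adjustment at 0.05 over all genes or all probes, and were tested on simulated data. Python 3.11.15, numpy 2.4.6, pandas 2.3.3 and matplotlib 3.10.9 made the tables and figures. The p-values rest on the spread between 2 samples a group, which eBayes drew toward that of all genes or all probes. The prior degrees of freedom were 5.96 for genes and 1.21 for probes, so much of a gene's SE came from the other genes. The number of arrays limits the precision.

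The members and lists were chosen with earlier results of these data known. Named genes were the simple-epithelial KRT7, KRT8, KRT18, KRT19, KRT20 and KRT23, the stratified KRT1, KRT4, KRT5, KRT10, KRT13, KRT14, KRT15 and KRT17, up to 10 called keratins in each direction, the 3 highest and 3 lowest means of each condition, the 5 greatest rises and 5 greatest falls among called probes above background in both channels on all 4 arrays, and up to 3 genes of each comparison list. Other keratins, such as KRT9, KRT16, KRT72, KRT80 and KRT81, were named after their values were seen. Alternatives were normexp (offset 50), loess, the series matrix, filters on dim probes, all probes, probes within 500 bp, the median of probes, a replicate block, robust eBayes and leaving out each replicate.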

Additional observations from a re-analysis of the deposited data

How the results depend on the processing

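Fewest calls were left by normexp background correction and by the median of probes. With normexp, gene differences were called higher at 2 and lower at 4 keratins (11 and 13 in the main setting), 1 keratin was below 0 at the basal level and 4 after TGFβ1 (26 and 32), probe differences numbered 16 higher and 17 lower (206 and 175), probes above and below 0 numbered 7 and 11 at the basal level and 6 and 43 after TGFβ1, and 0 keratins were called in either channel (limma). With the median of probes, 3 were higher and 2 lower, and 0 were above and 9 below 0 in either condition. With loess, 11 were above and 18 below 0 at the basal level, 6 above and 19 below after TGFβ1 (110 and 194 probes). Over all genes loess called 41.8% above and 20.9% below at the basal level and 42.9% and 20.8% after TGFβ1. Within 500 bp, 6 were above 0 at the basal level. Over all probes, 40 were below 0 at the basal level and 0 above after TGFβ1. With probes above background in both channels, 2 were above 0 after TGFβ1 and 130 probes were higher. Leaving out 1 replicate gave 7 to 9 keratins higher and 9 to 12 lower, 2 to 3 above and 22 to 27 below 0 at the basal level, 1 to 1 above and 26 to 31 below after TGFβ1, 0 to 0 in either direction of the SMAD3 channel, and 0 to 7 higher and 0 to 17 lower in the mock channel. For probes it gave 84 to 147 higher and 55 to 133 lower, 33 to 72 above and 163 to 331 below 0 at the basal level, and 39 to 51 and 215 to 244 after TGFβ1. The replicate block gave 11 higher and 14 lower, 3 above and 27 below 0 at the basal level and 1 and 32 after TGFβ1, with 0 higher and 6 lower in the mock channel. Same-numbered replicates hardly deviated together (correlation 0.0209 over probes, 0.109 over gene means), so the numbers were not taken to pair the samples. Differences turned sign over all probes at KRT19 (0.20), KRT84 (0.75) and KRT10 (0.078), within 500 bp at KRT3 (0.86), KRT25 (0.15), KRT27 (-0.12) and KRT5 (0.092), with the median of probes at KRT3 (0.34), KRT83 (0.36), KRT84 (0.019), KRT25 (0.051), KRT20 (0.012), KRT10 (0.052), KRT28 (0.045) and KRT74 (-0.061), with normexp at KRT1 (0.0070) and KRT6C (-0.049), with either filter on dim probes at KRT23 (-0.029), with the 1-channel filter at KRT5 (0.27), and without 1 replicate at KRT6C (from -0.12 to 0.23) and KRT36 (from -0.12 to 0.16). For the 23 called named genes, 229 of 312 values kept their call, 72 lost it and 11 turned sign, for the 7 named genes that were not called, 15 of 92 values gained a call and 12 turned sign, and for the 10 named probes 97 of 110 kept it and 13 lost it. The cause was not tested. A block for scan date was not run, since all arrays carry 1 date. Low signal limits the ratios, as 8 tested keratins had no window probe above background in both channels on all arrays. The dyes were not swapped, so dye and antibody cannot be told apart.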
